A study of Mus musculus with 18 samples.

Results

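*Neat1* and *Malat1*, a pair of abundant nuclear long noncoding RNAs, and 4 genes for proteins of the paraspeckle, *Sfpq*, *Nono*, *Pspc1* and *Rbm14*, were followed across 18 K7M2 tumors. These 6 genes, of 20878 genes measured, were chosen by name, with the levels of these tumors already known. Their levels and differences are therefore given as a description, with no test, and tests are given only for other genes.

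*Neat1* is the architectural RNA of the paraspeckle, a body between the chromatin domains of the nucleus that forms where its long transcript is made and gathers RNA-binding proteins. The DBHS proteins SFPQ, NONO and PSPC1 coat this transcript, and RBM14 holds the particles together, whereas the short *Neat1* transcript ends early at a polyadenylation site and does not build a paraspeckle alone. *Malat1*, the neighboring gene, makes an RNA that stays in nuclear speckles, the stores of splicing factors. Both RNAs are widely expressed, and *Neat1* rises in cells under stress.

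K7M2 is a mouse osteosarcoma line of Balb/c origin, grafted under the skin of immunocompetent Balb/c mice (Balb/cJ) or of NSG mice (NOD.Cg-Prkdc scid Il2rg tm1Wjl/SzJ), which lack T, B and NK cells. All hosts were females aged 6 to 8 weeks. The grafted cells carried, from a lentiviral vector, either a shRNA against *Atrx*, a chromatin remodeler gene (ATRX KD), or a control shRNA (ATRX CT), and no clone is named in the sources used here. Total RNA was sequenced from 4 Balb/c ATRX CT, 4 Balb/c ATRX KD, 5 NSG ATRX CT and 5 NSG ATRX KD tumors, each from a different mouse. The comparisons ask what the knock-down changed in each host, whether the change differed between hosts, and what differed between hosts for the same cells. Whole cages were assigned to a kind of cell, and no cage is in the labels, so cage and knock-down cannot be told apart. Levels are in FPKM, fragments per kilobase relative to library depth, and differences are between group means of log2 (FPKM + 1) with their standard error (SE), which understates changes of low genes.

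The *Atrx* level was 10.3 to 26.0 FPKM in Balb/c ATRX CT and 7.88 to 21.5 FPKM in Balb/c ATRX KD tumors, so it could not check the labels of these overlapping groups. It was 11.6 to 24.4 FPKM in NSG ATRX CT tumors and 8.42 to 8.88 FPKM in 4 of 5 NSG ATRX KD tumors, with 16.4 FPKM in mouse 27. The *Atrx* difference was -0.34 (SE 0.36) in Balb/c and -0.74 (SE 0.22) in NSG mice, and neither passed the threshold of limma, an adjusted p under 0.05. Libraries held an estimated 15150000 to 25200000 fragments. They differed in a length slope, the change of log2 level relative to the other libraries for each doubling of transcript length, which ran from -0.15 to 0.21. The slope was at least 0.1 in 6 libraries: Balb/c ATRX CT mice 43 and 45, Balb/c ATRX KD mice 56 and 60, NSG ATRX CT mouse 3 and NSG ATRX KD mouse 27. Of 10 markers of osteoblasts, *Sp7*, *Alpl*, *Ibsp*, *Bglap* and *Dlx5* stayed under 1 FPKM in every tumor, whereas *Col1a1* (56.6 to 499 FPKM), *Col1a2* (218 to 594 FPKM), *Spp1* (180 to 604 FPKM) and *Runx2* (3.54 to 11.1 FPKM) were present, so the tumors carried only part of these markers.

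In the annotation of the files (mm10, the same assembly as GRCm38), *Malat1* and *Neat1* lie on the minus strand of chromosome 19, with 22036 bases between them. *Malat1* is a single exon of 6982 nt at chr19:5795690-5802671. *Neat1* is listed with a long transcript of 20771 nt at chr19:5824708-5845478 and a short one of 3185 nt at chr19:5842296-5845480, each a single exon. The short transcript lies almost wholly inside the long one, so a level per gene cannot separate them. *Rbm14* is on the same strand of chromosome 19, 984055 bases beyond *Malat1*, at chr19:4800566-4811634. It overlaps *Gm21992* on the same strand, so their reads may be shared. *Sfpq* is at chr4:127021301-127037014, *Nono* at chrX:101429651-101448593 and *Pspc1* at chr14:56722449-56778316.

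The 3′ ends show what both noncoding RNAs have in common and what separates the *Neat1* transcripts. The long *Neat1* transcript and *Malat1* are not polyadenylated in the usual way: each ends in a blunt triple helix of U-rich stretches and an A-rich tract. The sequences below are from GENCODE transcripts (GRCm38, minus strand, written 5′ to 3′), and capitals mark the runs of at least 10 bases that both windows of 100 bases hold.
Neat1 long transcript, 3′ end, chr19:5824708-5824807: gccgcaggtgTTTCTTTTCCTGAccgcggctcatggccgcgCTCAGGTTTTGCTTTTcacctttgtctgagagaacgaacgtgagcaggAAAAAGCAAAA
Malat1, to the end of the shared A-rich run, chr19:5795982-5796081: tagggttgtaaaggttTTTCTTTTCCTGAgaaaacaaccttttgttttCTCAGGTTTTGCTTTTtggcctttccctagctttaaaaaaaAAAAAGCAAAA
There were 3 shared runs, of 13, 16 and 11 bases, in the same order in both. The A-rich run AAAAAGCAAAA stood in the last 100 bases of 0.0466% of 137364 GENCODE transcripts, TTTCTTTTCCTGA in 0.00146% and CTCAGGTTTTGCTTTT in 0.000728%, read on the transcript strand. These shares are 64, 2 and 1 transcripts, and they include the long *Neat1* transcript, from which the runs were taken. The *Malat1* runs above are not counted, because they end more than 100 bases before the end of its annotated transcript. In *Malat1*, the annotated transcript goes on for 292 bases after the A-rich run, and these begin with the tRNA-like small RNA that RNase P cuts free:
Malat1, after the shared run, chr19:5795922-5795981: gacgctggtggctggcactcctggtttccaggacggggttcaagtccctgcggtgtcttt
The end of the short *Neat1* transcript is of the usual kind, with a polyadenylation signal (AATAAA) and the TGTA motif that cleavage factor I binds, both in capitals:
Neat1 short transcript, 3′ end, chr19:5842296-5842415: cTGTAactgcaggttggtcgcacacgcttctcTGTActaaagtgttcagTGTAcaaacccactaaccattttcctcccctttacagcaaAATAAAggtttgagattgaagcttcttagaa
AATAAA ended 25 bases before the end of this transcript, and 29.8% of all transcripts held it in their last 120 bases. TGTA was found 3 times, and 3.72% of transcripts held at least 3.

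*Neat1* was highest in NSG ATRX CT tumors and lowest in NSG ATRX KD tumors, with both Balb/c groups between. In NSG ATRX CT tumors, the *Neat1* level was 343, 167, 228, 338 and 398 FPKM in mice 1 to 5. In NSG ATRX KD tumors, it was 89.9, 147, 53.0, 55.7 and 58.5 FPKM in mice 26 to 30. Every knock-down tumor was below every control tumor, and the closest pair was knock-down mouse 27 and control mouse 2. The mean was 295 ± 94.5 FPKM (SD, n = 5) in controls and 80.9 ± 40.1 FPKM (SD, n = 5) in knock-down tumors, 3.64-fold higher in controls. The *Neat1* difference was -1.90 (SE 0.31), and 10 of 14654 genes tested had a lower one. This contrast was known when the genes were chosen, so it is no test of *Neat1*. For 3.14% of all genes every NSG ATRX KD tumor was below every NSG ATRX CT tumor, and *Neat1* was the 1 of the 6 genes in this count. Scaling to the spike-ins moved the median of all genes by 0.13 and left 3 genes lower and 8 higher in NSG ATRX KD tumors at an adjusted p under 0.05 in limma, against 447 and 547 as deposited. The *Neat1* difference was then -1.72.

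The *Neat1* groups of Balb/c mice overlapped over most of their range. The level was 90.2, 205, 145 and 258 FPKM in ATRX CT mice 41, 43, 44 and 45. It was 244, 82.1, 120 and 119 FPKM in ATRX KD mice 56, 58, 59 and 60. The highest tumor of each group, mice 45 and 56, had the steepest length slopes of the series, 0.19 and 0.21. The mean was 174 ± 72.5 FPKM (SD, n = 4) in controls and 141 ± 70.5 FPKM (SD, n = 4) in knock-down tumors. The *Neat1* difference was -0.32 (SE 0.39), less than its SE, and -0.20 (SE 0.26) in the 4 Balb/c tumors with a slope under 0.1.

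*Malat1* had the highest level of the 6 genes in all 18 tumors, from 605 to 2116 FPKM, and was between the 11th and the 139th gene of its library by FPKM. In NSG ATRX CT tumors, the *Malat1* level was 2116, 1290, 1716, 1925 and 2090 FPKM in mice 1 to 5. In NSG ATRX KD tumors, it was 970, 1612, 1034, 812 and 1016 FPKM in mice 26 to 30. The groups overlapped, because knock-down mouse 27 was above control mouse 2. The mean was 1827 ± 340 FPKM (SD, n = 5) against 1089 ± 305 FPKM (SD, n = 5), 1.68-fold higher in controls, and the *Malat1* difference was -0.76 (SE 0.21), with 222 of 14654 genes lower still. The 2 NSG libraries of a slope of at least 0.1 were control mouse 3 and knock-down mouse 27. Without them, a choice made after seeing the data, the *Malat1* difference was -0.93 (SE 0.17). The *Malat1* level was then 812 to 1034 FPKM in knock-down and 1290 to 2116 FPKM in control tumors. This choice left out mouse 27, which alone had made the groups overlap. How many of all genes separate in the tumors kept was not counted. The *Neat1* difference was then -2.22 (SE 0.27).

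For *Malat1* in Balb/c mice, the level was 721, 1336, 982 and 1230 FPKM in ATRX CT mice 41, 43, 44 and 45. It was 1680, 605, 879 and 1026 FPKM in ATRX KD mice 56, 58, 59 and 60. The knock-down group held both the highest and the lowest of the 8 tumors. The *Malat1* difference was -0.09 (SE 0.35), less than its SE. It was 0.15 without ATRX KD mouse 58 and 0.04 without ATRX CT mouse 43, so its sign changed when either tumor was left out.

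The level of *Neat1* relative to that of *Malat1* in the same library does not depend on scaling between libraries. The *Neat1* level was 12.9% to 19.0% of the *Malat1* level in NSG ATRX CT tumors (mean 15.8% ± 2.66, SD, n = 5) and 5.13% to 9.26% in NSG ATRX KD tumors (mean 7.23% ± 1.91, SD, n = 5). These groups did not overlap. It was 12.5% to 20.9% in Balb/c ATRX CT tumors (mean 15.9% ± 3.57, SD, n = 4) and 11.6% to 14.5% in Balb/c ATRX KD tumors (mean 13.3% ± 1.22, SD, n = 4), which overlapped. All 5 NSG ATRX KD tumors were thus below the other 13 in this share, including mouse 27 (9.15%), whose *Neat1* level was within the Balb/c range.

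**Figure D1:**
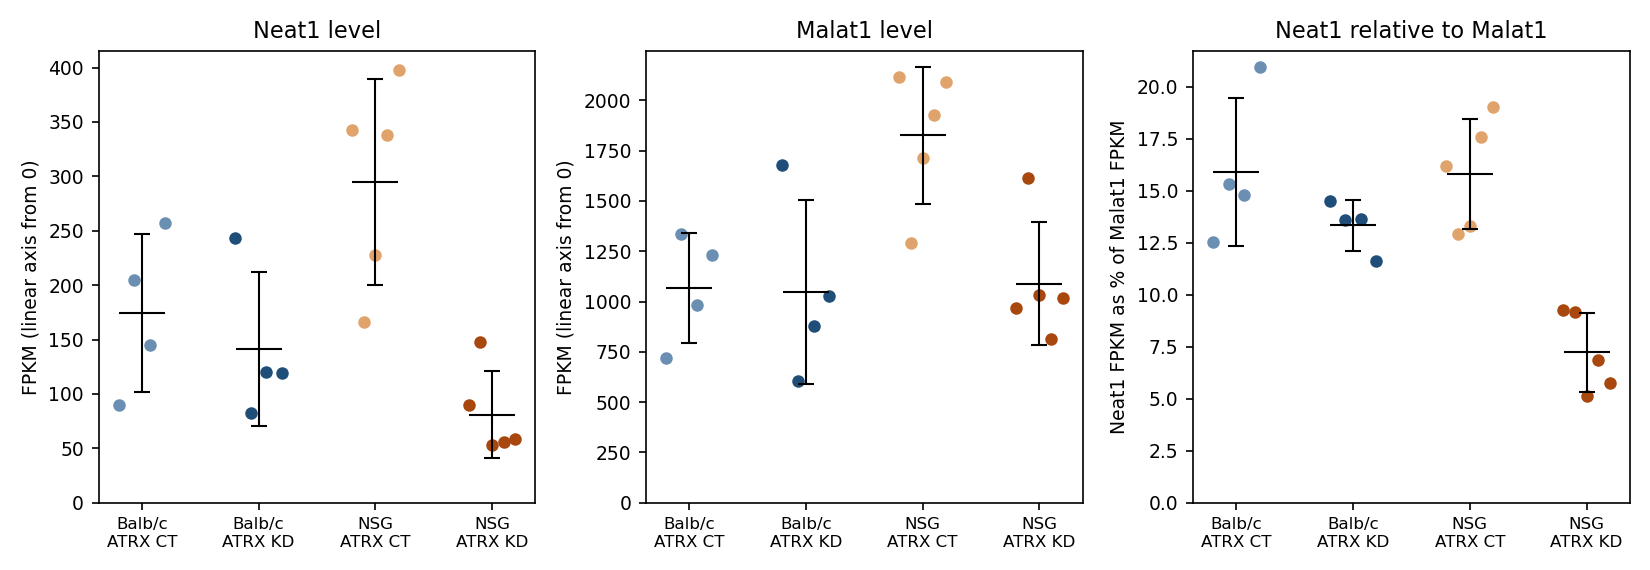
Levels of *Neat1* and *Malat1* in FPKM (linear axes from 0) and the *Neat1* level as a percent of the *Malat1* level, by group. Each point is 1 tumor, in the order of mouse numbers, and the black line and bar are the mean and SD (n = 4 in Balb/c, n = 5 in NSG groups). The NSG ATRX KD tumors lie below the NSG ATRX CT tumors for *Neat1* and for the percent (5.13 to 9.26 against 12.9 to 19.0), whereas the groups overlap for *Malat1*.

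The genes for the 4 proteins varied far less than *Neat1*, and their groups overlapped in both hosts. Over the 18 tumors the highest *Neat1* level was 7.50 times the lowest and the highest *Malat1* level 3.50 times the lowest. That ratio was 2.01 for *Rbm14*, 1.82 for *Sfpq*, 1.59 for *Nono* and 1.40 for *Pspc1*. The SD within groups, in log2 units, was 0.61 for *Neat1*, 0.42 for *Malat1*, 0.28 for *Rbm14*, 0.24 for *Sfpq*, 0.20 for *Nono* and 0.15 for *Pspc1*, beside a median of 0.23 over 14803 genes. In all 18 tumors *Rbm14* and *Pspc1* were lowest by FPKM, and in 4 tumors *Neat1* was below *Sfpq*.

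*Sfpq*, which encodes the DBHS protein needed to keep the long *Neat1* transcript, was at 77.8, 78.1, 102, 74.4 and 91.4 FPKM in NSG ATRX CT mice 1 to 5. Its level was 87.6, 106, 84.0, 79.3 and 95.1 FPKM in NSG ATRX KD mice 26 to 30, a *Sfpq* difference of 0.10 (SE 0.11). Balb/c tumors had *Sfpq* at 79.9 to 127 FPKM in ATRX CT and 79.7 to 135 FPKM in ATRX KD tumors, a difference of -0.02 (SE 0.20). The highest *Sfpq* levels were again in mice 45 and 56.

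*Nono*, which encodes the usual partner of SFPQ in dimers, was at 67.9, 81.3, 101, 68.1 and 76.6 FPKM in NSG ATRX CT mice 1 to 5. In NSG ATRX KD mice 26 to 30 the *Nono* level was 76.0, 93.5, 92.1, 89.4 and 101 FPKM, and the *Nono* difference was 0.20 (SE 0.12). Control mouse 3 was as high as the knock-down tumors, and the other controls were at or below 81.3 FPKM. In Balb/c tumors *Nono* was at 71.0 to 108 FPKM in ATRX CT and 73.4 to 88.6 FPKM in ATRX KD tumors, a difference of -0.12 (SE 0.15).

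*Pspc1*, the remaining DBHS gene, was the steadiest of the 6 genes. Its level was 28.5 to 37.4 FPKM in NSG ATRX CT and 30.3 to 32.7 FPKM in NSG ATRX KD tumors, and the *Pspc1* difference was -0.10 (SE 0.09). It was 26.8 to 34.4 FPKM in Balb/c ATRX CT and 27.0 to 37.1 FPKM in Balb/c ATRX KD tumors, a difference of 0.07 (SE 0.14). Among the 8 NSG tumors with a slope under 0.1, a choice made after seeing the data, the *Pspc1* difference was -0.15 (SE 0.07). Its level was then 30.4 to 32.7 FPKM with the knock-down and 34.3 to 37.4 FPKM without. The slope used for this choice moved with *Pspc1* itself, as given below. How many of all genes separate in these 8 tumors was not counted.

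*Rbm14*, which encodes a coactivator with a prion-like domain, was at 21.7 to 27.4 FPKM in NSG ATRX CT and 22.6 to 32.4 FPKM in NSG ATRX KD tumors, a difference of 0.14 (SE 0.12). Balb/c tumors had *Rbm14* at 25.1 to 43.2 FPKM in ATRX CT and 21.5 to 40.6 FPKM in ATRX KD tumors, a difference of -0.11 (SE 0.23). Among the 4 protein genes, the difference farthest from 0 in either knock-down comparison was that of *Nono* in NSG tumors, 0.20, whereas that of *Neat1* was -1.90. The proteins themselves were not measured.

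**Figure D2:**
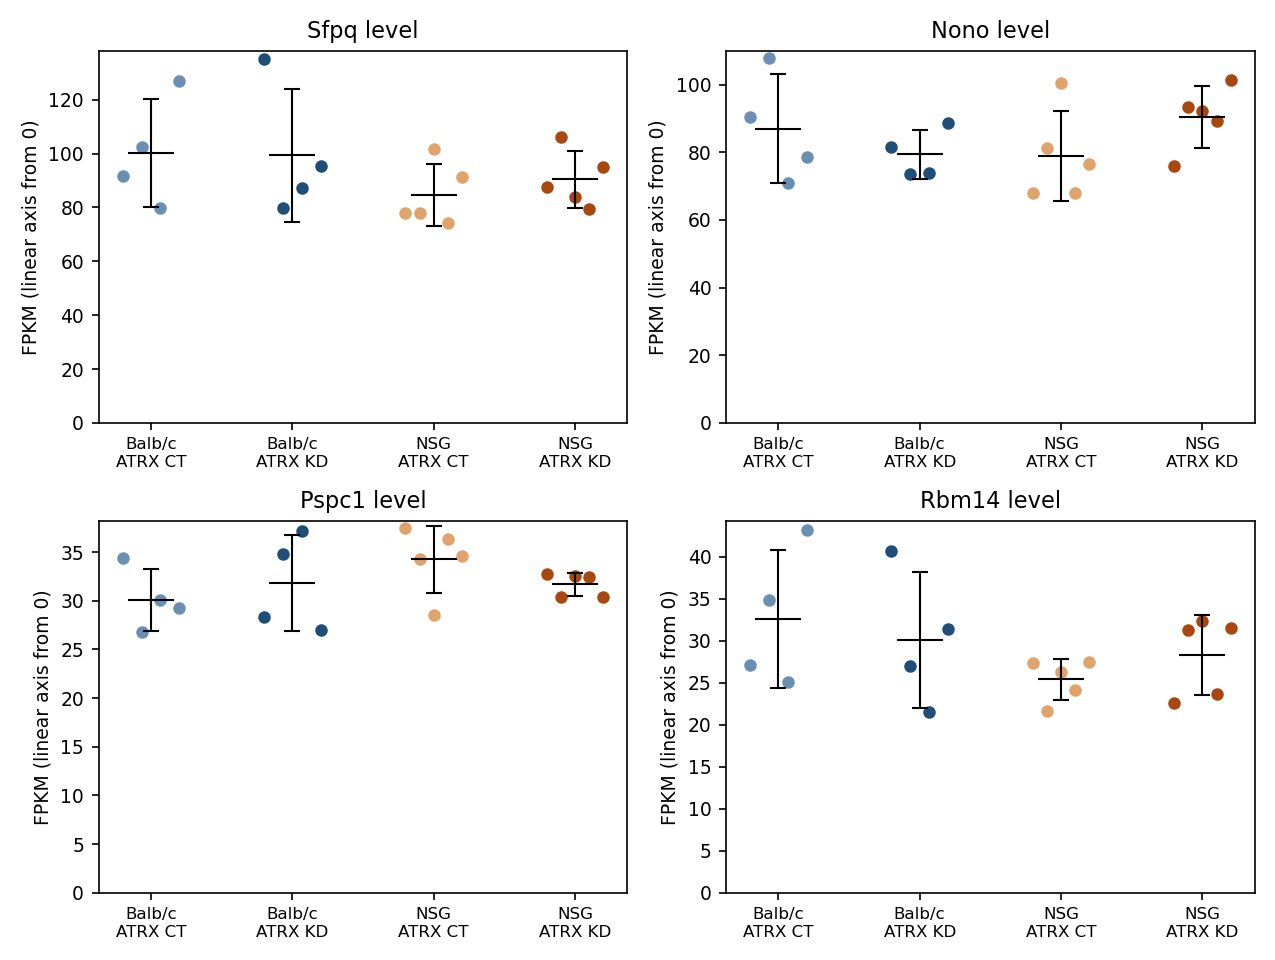
Levels of *Sfpq*, *Nono*, *Pspc1* and *Rbm14* in FPKM (linear axes from 0) by group. Each point is 1 tumor and the black line and bar are the mean and SD (n = 4 in Balb/c, n = 5 in NSG groups). The groups overlap for all 4 genes, and the highest *Sfpq* points (127 and 135 FPKM) are Balb/c tumors of the steepest length slopes.

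Between hosts, both noncoding RNAs were higher on average in NSG than in Balb/c ATRX CT tumors. The *Malat1* difference was 0.79 (SE 0.25) and the *Neat1* difference 0.79 (SE 0.33). The groups overlapped for both: the lowest NSG control, mouse 2, was at 1290 FPKM of *Malat1* and the highest Balb/c control, mouse 43, at 1336 FPKM. In this comparison 2.85% of 14828 genes were higher without overlap, and none of the 6 genes was among them. Scaling to the spike-ins moved the median of all genes here by -0.25, and both RNAs then differed by 0.46. *Rbm14* (-0.32, SE 0.16), *Sfpq* (-0.23, SE 0.15), *Nono* (-0.14, SE 0.16) and *Pspc1* (0.18, SE 0.11) overlapped as well. Leaving out the libraries of a slope of at least 0.1, a choice made after seeing the data, kept 4 NSG and 2 Balb/c controls. The difference was then 1.36 (SE 0.34) for *Neat1* and 1.11 (SE 0.24) for *Malat1*. It was -0.06 (SE 0.13) for *Rbm14*, -0.09 (SE 0.12) for *Sfpq*, -0.13 (SE 0.14) for *Nono* and 0.15 (SE 0.11) for *Pspc1*.

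In ATRX KD tumors the mean of *Neat1* was lower in NSG than in Balb/c mice, whereas *Malat1* had no steady direction. The *Neat1* difference was -0.80 (SE 0.36), and the *Malat1* difference was 0.11 (SE 0.30), less than its SE. Under the alternatives given below, that of *Malat1* ran from -0.12 to 0.39. The groups overlapped for both RNAs. The 4 protein genes had differences from -0.11 to 0.19. The host and knock-down comparisons share tumors, so they are not independent of each other.

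The knock-down difference in Balb/c minus that in NSG tumors was 1.58 (SE 0.52) for *Neat1* and 0.68 (SE 0.39) for *Malat1*. For *Pspc1* it was 0.17 (SE 0.15), for *Sfpq* -0.12 (SE 0.22), for *Rbm14* -0.25 (SE 0.25) and for *Nono* -0.32 (SE 0.19). The value of *Neat1* was exceeded by that of 22 of 14803 genes. It is a description of a gene chosen with its levels known, and no difference between hosts is claimed from it.

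**Figure D3:**
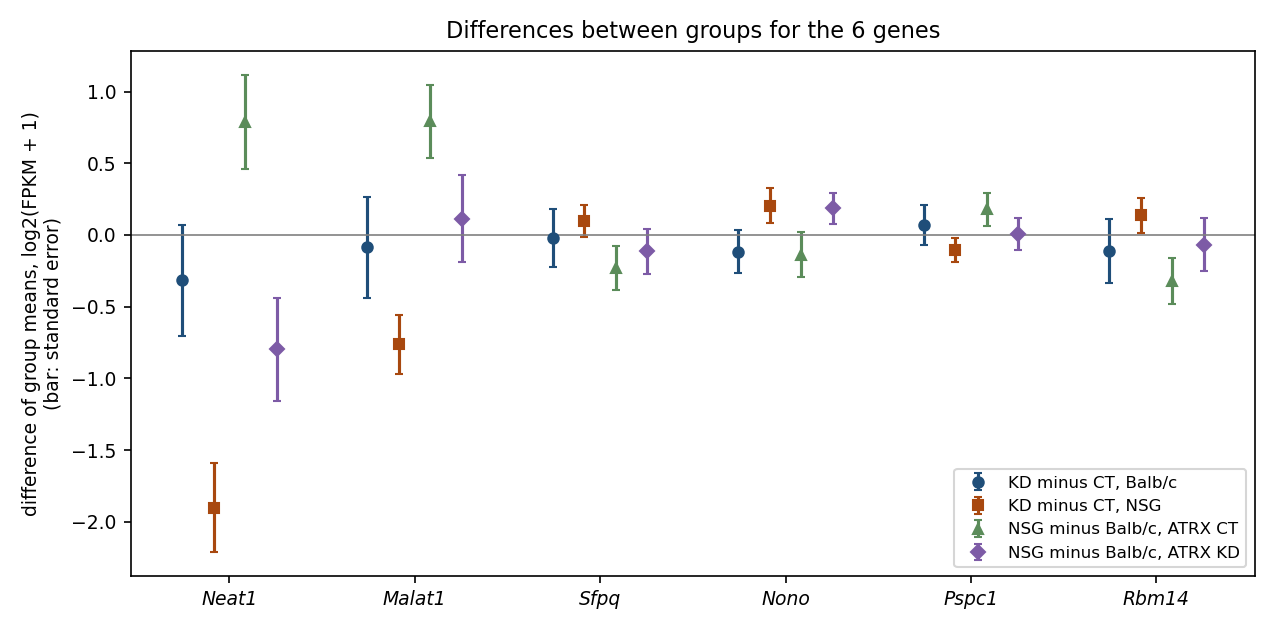
Difference between group means of log2 (FPKM + 1) for the 6 genes in 4 comparisons, with bars for the standard error of the limma fit. *Neat1* in NSG tumors (-1.90) lies farthest from 0, *Malat1* and *Neat1* are both at 0.79 for the host in ATRX CT tumors, and the 4 protein genes stay within 0.32 of 0.

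Within groups, *Neat1* and *Malat1* varied together. After each group was centred on its mean, Pearson's r between their log2 levels over 18 tumors was 0.91 (Spearman's rho 0.86), and 0.85 without the 2 tumors farthest from the median of *Neat1*. The pair shares library, strand and scaling, so r is a description. For *Neat1* with *Sfpq* r was 0.65 (rho 0.56) and fell to 0.46 without 2 tumors, with *Rbm14* it was 0.56 (rho 0.47, 0.42 without), with *Pspc1* -0.30 (rho -0.34, -0.17 without) and with *Nono* -0.15 (rho -0.20, -0.27 without).

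The length slope of the library moved with all 6 genes. Centred in the same way, r between the slope and the level over 18 tumors was 0.91 for *Sfpq* (rho 0.92, 0.87 without 2 tumors) and 0.81 for *Rbm14* (rho 0.80, 0.76 without). It was 0.70 for *Malat1* (rho 0.74, 0.52 without), 0.58 for *Nono* (rho 0.51, 0.65 without) and 0.56 for *Neat1* (rho 0.55, 0.34 without). *Pspc1* went the other way, with -0.78 (rho -0.73, -0.79 without), and *Atrx* had 0.93 (rho 0.88, 0.90 without). With the trend along length removed from each library, the *Neat1* difference in NSG tumors was -1.97 and that of *Malat1* -0.80. The slopes of NSG ATRX CT (-0.15 to 0.10) and NSG ATRX KD tumors (-0.08 to 0.12) overlapped.

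**Figure D4:**
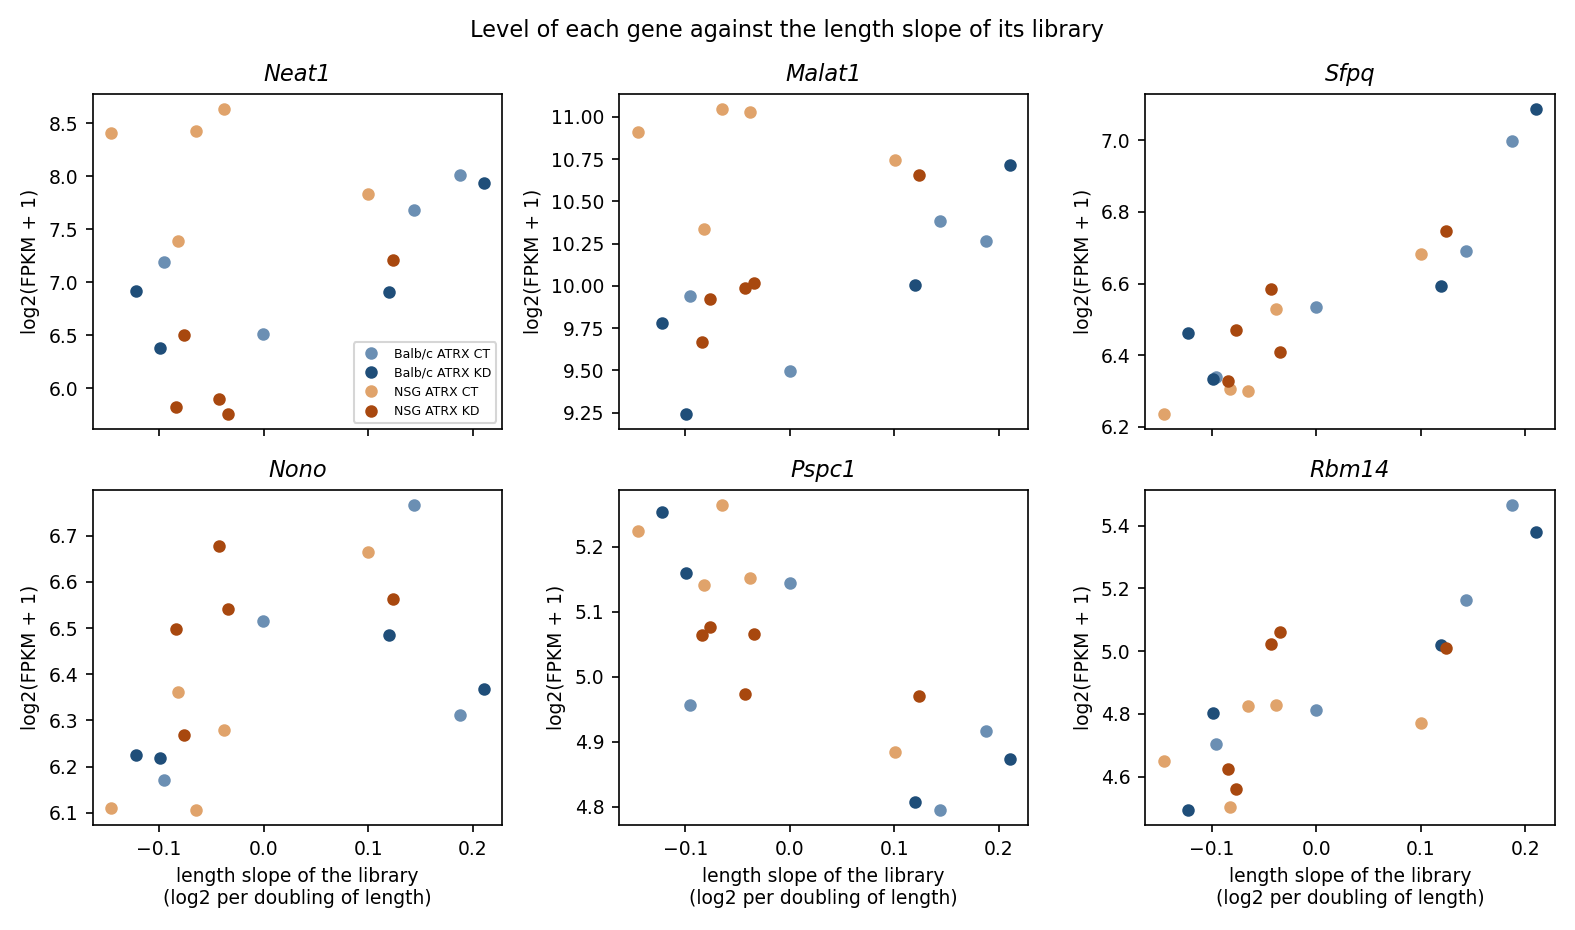
Level of each of the 6 genes in log2 (FPKM + 1) against the length slope of its library (log2 units per doubling of transcript length), 1 point per tumor, colored by group. *Sfpq* and *Rbm14* rise and *Pspc1* falls along the slope in all groups together. For *Neat1* the NSG ATRX CT points (7.39 to 8.64) lie above the NSG ATRX KD points (5.76 to 7.21). Of the NSG tumors only control mouse 3 and knock-down mouse 27 have a slope above 0.

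Genes whose group-centred pattern over the 18 tumors was most like that of the noncoding pair were sought among the 12180 genes that averaged 1 FPKM or more. For *Neat1* these were *Leng8* (r = 0.97), the noncoding *4931406H21Rik* (0.96), *3110039I08Rik* (0.96), the noncoding *5031425E22Rik* (0.95) and *Mllt10* (0.95). For *Malat1* they were *E330033B04Rik* (0.97), *3110039I08Rik* (0.96), *BC005561* (0.96), *4933407K13Rik* (0.95) and *D130040H23Rik* (0.95). *3110039I08Rik* was on both lists, and these values share the libraries and their slopes.

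Genes around the pair were examined for the same comparisons. Within 100000 bases of *Neat1* or *Malat1* lie 13 other annotated genes, from *Map3k11* to *Pola2*. In NSG tumors 12 of them were tested, and 0 passed the threshold in limma for the knock-down, with 3 at an unadjusted p under 0.05, where 26.3% of all genes were. Their differences ran from -0.44 to 0.38 with a median of 0.03. *Frmd8*, which lies 5493 bases from *Neat1* and encodes a partner of iRhom proteins, differed by 0.16 (SE 0.10). *Slc25a45*, a mitochondrial carrier gene, had the lowest value, -0.44 (SE 0.13, adjusted p = 0.0622 in limma): it was at 6.06 to 8.45 FPKM in NSG ATRX KD and 8.69 to 14.1 FPKM in NSG ATRX CT tumors. In Balb/c tumors 0 of 13 passed for the knock-down, with 1 at an unadjusted p under 0.05, beside 4.14% of all genes. Between hosts, where 3.18% of all genes passed with ATRX CT and 3.64% with ATRX KD cells, *Kcnk7* alone of the 13 passed. It was lower in NSG ATRX KD tumors, at a level of at most 0.46 FPKM. Its mean was 0.36 FPKM in Balb/c and 0.02 FPKM in NSG ATRX KD tumors. *Kcnk7* thus met the filter of 0.1 FPKM only through the Balb/c group, and its passing is not taken as a result.

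Other paraspeckle proteins, nuclear speckle proteins and long noncoding RNAs were compared as lists, in which 6 of 75 genes passed the threshold for the knock-down in NSG tumors. Of these, 3 were lower and 3 higher, where 3.05% of all genes were lower and 3.73% higher. For the knock-down in Balb/c tumors 0 of 76 passed the threshold, where 0.00680% of all genes did, and 0 had an unadjusted p under 0.05 in limma, where 4.14% of all genes did. Of 28 further paraspeckle proteins, 2 rose and 0 fell in NSG ATRX KD tumors, beside 3.73% of all genes that rose, and the median difference was 0.04 against -0.00141 over all genes. *Hnrnpa1*, a splicing repressor with processed pseudogenes that can take its reads, rose by 0.36 (SE 0.09, adjusted p = 0.0375 in limma), from 277 to 336 FPKM in controls to 369 to 403 FPKM. *Dazap1*, an RNA-binding protein gene, rose by 0.30 (SE 0.08, adjusted p = 0.0460 in limma), from 47.2 to 54.3 FPKM in controls to 55.7 to 67.9 FPKM. In 4 of the 28 genes every knock-down tumor was above every control, *Hnrnpf* and *Matr3* being the others, where 4.36% of all genes were.

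Of 25 nuclear speckle proteins, 1 rose and 2 fell in NSG ATRX KD tumors, where 3.73% of all genes rose and 3.05% fell, with a median difference of -0.08. Both that fell encode kinases that phosphorylate SR proteins, whereas *Clk2*, a gene of the same kinase family in this list, did not pass (-0.17, SE 0.11). *Clk1* fell by 0.53 (SE 0.10, adjusted p = 0.0164 in limma), from 49.1 to 63.5 FPKM in controls to 34.8 to 46.7 FPKM. *Clk4* fell by 0.42 (SE 0.10, adjusted p = 0.0378 in limma), from 15.3 to 22.7 FPKM in controls to 14.3 to 14.8 FPKM. *Rnps1*, whose protein activates splicing and joins the exon junction complex, rose by 0.44 (SE 0.09, adjusted p = 0.0222 in limma), from 14.7 to 16.7 FPKM in controls to 19.2 to 24.8 FPKM.

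Of 14 other nuclear long noncoding RNAs, 9 were tested in NSG tumors and 0 passed the threshold in limma, with 5 at an unadjusted p under 0.05, all lower with the knock-down, where 12.5% of all genes were lower at that p. The median difference was -0.39. The lowest were *Kcnq1ot1*, the antisense RNA of an imprinted domain, at -1.01 (SE 0.29, adjusted p = 0.0583 in limma), *Xist*, the RNA of X inactivation, at -0.75 (SE 0.26), *Firre* at -0.74 (SE 0.20) and *Pvt1* at -0.70 (SE 0.23). *Tug1*, another abundant nuclear RNA, was at 24.0 to 32.6 FPKM in controls and 26.4 to 33.1 FPKM in knock-down tumors (0.11, SE 0.10). The *Neat1* difference was thus lower than that of all 9, and the *Malat1* difference lower than that of 8. Of 16 snoRNA host or cytoplasmic long noncoding RNAs, 13 were in the data, and 1 fell and 0 rose, beside the same 3.05% and 3.73% of all genes, with a median difference of -0.19. *Snhg20* fell by 0.74 (SE 0.11, adjusted p = 0.0106 in limma), from 23.1 to 32.4 FPKM in controls to 13.5 to 18.7 FPKM.

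**Figure D5:**
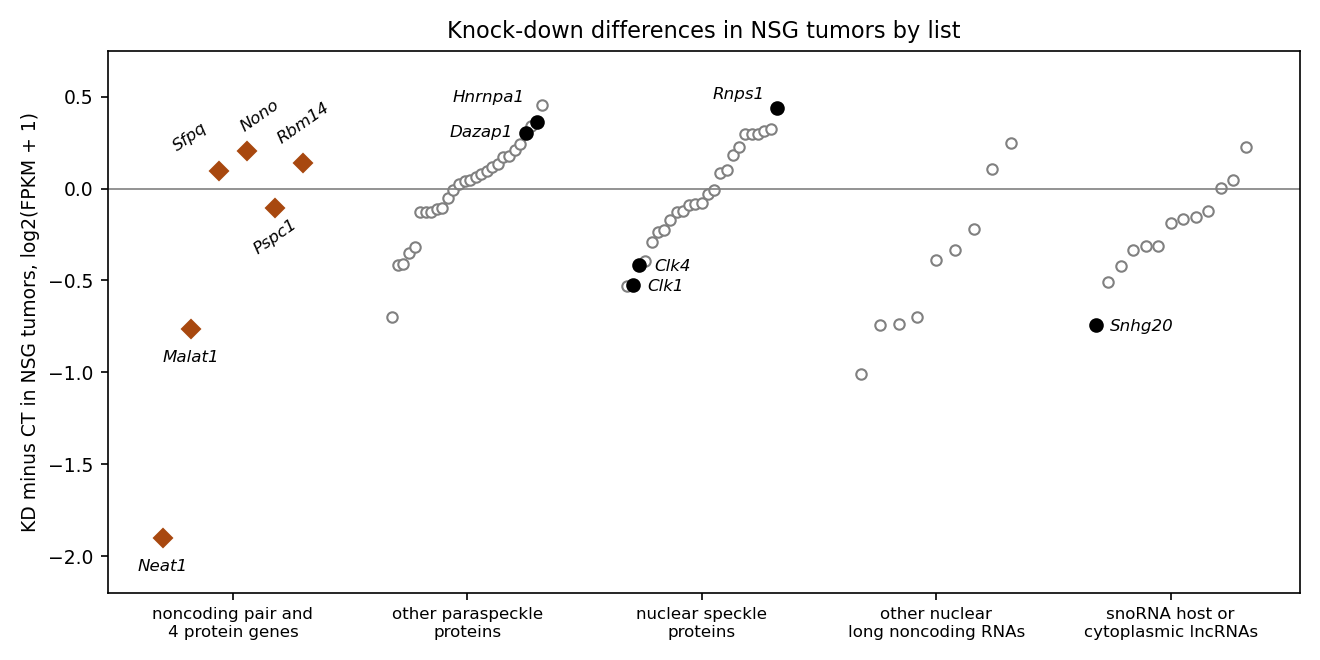
Difference between NSG ATRX KD and NSG ATRX CT tumors in log2 (FPKM + 1) for the 6 genes (diamonds) and for each tested gene of 4 lists (circles). Filled circles passed an adjusted p under 0.05 in limma and are named, open circles did not. *Neat1* at -1.90 lies below every gene of the lists, whose lowest value is -1.01.

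Between hosts, 0 genes of the 4 lists passed the threshold, where 3.18% of all genes did with ATRX CT and 3.64% with ATRX KD cells. At an unadjusted p under 0.05 in limma, 1 of 76 genes of the lists was lower and 6 were higher in NSG than in Balb/c ATRX CT tumors, beside 11.5% and 7.87% of all genes. In ATRX KD tumors 7 of 75 were lower and 2 higher at that p, beside 9.93% and 6.50% of all genes. For the difference between hosts in the knock-down change, 0 genes of the lists and 0% of all genes passed the threshold in limma, and 8 of 75 had an unadjusted p under 0.05, beside 10.3% of all genes. With library weights and a robust prior, that test called 1268 genes lower and 717 higher of 14803, so its count of 0 depends on the fit.

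Some cell type markers differed between these groups, and the part of tumor makeup in the levels of the 6 genes was not tested. Fewer cells of a type and less RNA per cell cannot be told apart in whole tumors. Of 10 macrophage markers, 3 were lower in NSG ATRX KD than in NSG ATRX CT tumors at an adjusted p under 0.05 in limma, beside 3.05% of all genes. The difference of 1 of the 10 was above 0, at 0.37. The summed level of the 10 overlapped between these groups, at 1998 to 3554 against 3138 to 4320 FPKM. Of 10 endothelial markers, 3 were higher, beside 3.73% of all genes, and the difference of 1 of the 10 was below 0, at -0.03. Their summed level overlapped as well, at 54.2 to 73.7 against 25.2 to 66.0 FPKM. Keratinocyte and muscle markers passed in 0 genes in this comparison (0 of 7 and 0 of 10 at an unadjusted p under 0.05 in limma), although muscle markers summed to 2.36 to 550 FPKM within the NSG ATRX KD group. T cell markers describe the hosts: their mean log2 level was 2.05 to 2.78 in Balb/c and 0.16 to 0.45 in NSG tumors. With either kind of cell 7 of 8 passed as lower in NSG tumors. The share of all genes was 2.09% with ATRX CT and 2.80% with ATRX KD cells. Only 2 of the T cell markers averaged 0.1 FPKM or more over the NSG tumors. The others met the filter only through the Balb/c group, so their passing is not taken as a test of the hosts.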

How the data were processed

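RNA of 18 tumors in 4 groups of host and shRNA was analysed, grouped by their labels. The authors made stranded, ribo-depleted libraries, aligned paired reads to mm10 with STAR 2.6.0c, filtered them for quality and duplicates, and computed levels of RefSeq genes by Cufflinks 2.2.1. The deposited values are log2 (FPKM + 1) for 20878 genes and 92 spike-ins, which were left out of tests. Spike-ins took 1.39% to 2.93% of the sum of FPKM multiplied by transcript length. The base is 2 by the values: products of FPKM and length add up to 1.10 to 1.13 times the total that FPKM implies, and to 8.45 to 11.2 times with the natural log. No scaling between libraries is given in the sources used here for these values. Depth was estimated from the steps between low values, and 37.8% to 43.3% of these were whole fragments to within 0.1, so whole reads were not recovered and no count test was run. Chance gives 20% at 1 fixed depth. Each estimate was the depth with the highest share among many tried, so its share exceeds that by selection, and the depths are rough.

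Differences were fitted in R 4.3.3 with limma 3.58.1 (lmFit, eBayes with trend) on log2 (FPKM + 1), for genes averaging 0.1 FPKM or more over the compared tumors, with Benjamini-Hochberg adjustment over all genes tested and a threshold of 0.05. The fit was tested on simulated data. Python 3.11.15 did the rest. The 6 genes and all lists were chosen with earlier results of these data known. Genes named were the 6, *Atrx*, for each list and comparison up to 3 genes past the threshold in each direction with the largest difference and no overlap, the 5 genes most like *Neat1* and *Malat1*, and genes within 100000 bases of them. The other genes of lists (*Hnrnpf*, *Matr3*, *Clk2*, *Kcnq1ot1*, *Xist*, *Firre*, *Pvt1*, *Tug1*) and the osteoblast markers were named after their values were seen. *Zfas1*, *Oip5os1*, *Norad*, *Trbc1* and *Trbc2* were not analysed here. The sources name the mouse of each tumor, and p-values measure the spread between mice.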

Additional observations from a re-analysis of the deposited data

Results flagged for a closer look

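Gaps within groups were examined for the 6 genes, the *Neat1* share and the means of the 4 lists, 44 groups of 4 or 5 tumors in all, of which chance marks about 2.2. There were 2, both in lists and none in the 6 genes. The mean log2 level of the snoRNA host or cytoplasmic long noncoding RNAs was 6.16 in Balb/c ATRX CT mouse 44, against 5.42 to 5.45 in the other Balb/c ATRX CT tumors. The mean log2 level of the other nuclear long noncoding RNAs was 1.90 in NSG ATRX CT mouse 2, against 2.14 to 2.21 in the other NSG ATRX CT tumors. Mouse 2 was also the NSG control with the least *Neat1* and *Malat1*.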

How the results depend on the processing

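Differences of the 6 genes were compared with a pseudocount of 0.1, median-ratio and spike-in scaling, the length trend removed and each tumor left out. Leaving out the steep libraries was added after seeing the data. Under these alternatives the *Neat1* difference in NSG tumors stayed between -2.22 and -1.72 and that of *Malat1* between -0.93 and -0.58. Differences with library weights are not part of these ranges. Of 158 differences of this pair under the same alternatives, 5 changed sign, in comparisons where *Malat1* differed by less than its SE. The 6 genes of the lists that passed in NSG tumors became 0 when a fold of 2 was also needed or with spike-in scaling, 13 with the length trend removed, 42 with library weights and a robust prior, 20 without the steep libraries, and 1 (without knock-down mouse 30) to 16 (without control mouse 3) with 1 tumor left out. The 0 for the host in ATRX CT tumors became 20 with library weights and 0 to 3 with 1 tumor left out. The 0 for the host in ATRX KD tumors became 1 with a pseudocount of 0.1, 1 with the length trend removed, 8 with library weights, 3 in a fit of all 4 groups, 1 without the steep libraries and 0 to 1 with 1 tumor left out. The 0 for the difference between hosts became 19 with library weights, where all genes went from 0 to 1268 lower and 717 higher. *Snhg20* passed in 18, *Clk1* in 17, *Rnps1* in 13, *Clk4* in 11, *Hnrnpa1* in 10 and *Dazap1* in 7 of 20 alternatives. Over all genes, the 447 lower and 547 higher in NSG tumors became 43 and 25 with a fold of 2, 3 and 8 with spike-in scaling, 724 and 937 with the length trend removed, 2464 and 2950 with library weights, 733 and 1121 without the steep libraries, and 54 and 90 (without knock-down mouse 30) to 801 and 1279 (without control mouse 3). In Balb/c tumors the 1 gene became 17 lower and 5 higher with library weights and 20 and 7 in a fit of all groups. The cause was not tested. All 6 genes stayed at or above 21.5 FPKM, whereas genes as low as *Kcnk7* rest on few fragments. No paired analysis was possible because the groups shared no mouse numbers.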
